A study of Homo sapiens with 2 samples.

Results

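The genes described here are 169 human long intergenic non-coding RNA genes whose symbol is LINC followed by a number. They were chosen by level: a gene entered when its FPKM, the fragments per kilobase of transcript, scaled to the mapped fragments of its library, was at least 5 in at least 1 of the 2 libraries. The files list 719 genes with such a symbol among 19316 genes in all, and 9806 genes of every kind reached the same level. The library with FZD2 shRNA alone brought in 114 of the 169, both libraries brought in 53, and the control library alone brought in LINC00920 and LINC00857. The choice therefore used the same FPKM values that are compared below. A gene near the limit with a low control value had to be higher in the FZD2 shRNA library to enter, and the comparisons are given as descriptions without a test.

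Both libraries came from the established human line SNU449, labelled a liver cancer cell, which the series' design text also spells SNU499. One culture carried a lentivirus expressing shRNA against FZD2, a receptor of the Frizzled family for Wnt ligands, and its genotype is labelled FZD2 deficiency. The other carried a negative control shRNA labelled FZD2 shNC, so lentivirus and shRNA expression were shared by both groups, and RNA was taken after 7 days. Poly(A)-selected RNA was sequenced on the BGISEQ-500 platform, with 1 library per group. No spread between replicates can be given, so a difference between the libraries could not be assigned to the treatment. In RNA from whole cultures, fewer cells that express a gene and less of its RNA per cell cannot be told apart. No shRNA sequence is named in the labels, and the control is a single culture of the same line.

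Long intergenic non-coding RNAs are transcripts that lie between protein-coding genes, are usually spliced and polyadenylated, and hold no long open reading frame. Many are low in abundance and restricted to few tissues, and their exons often contain transposable elements, including Alu repeats, the short primate elements that descend from the 7SL RNA of the signal recognition particle. Several are studied in tumours as regulators of transcription, as partners of RNA-binding proteins or as sources of small peptides, while most have no known role. A LINC symbol is a placeholder that can be replaced when a function or a host gene is assigned. MALAT1 and NEAT1 have a LINC number among their synonyms.

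The targeted gene checks the labels. FZD2 stood at 15.8 FPKM with FZD2 shRNA and 59.5 FPKM with control shRNA, giving a log2 ratio of -1.85. Throughout, a log2 ratio is log2 of (FPKM + 1) in the FZD2 shRNA library over (FPKM + 1) in the control, which understates the change of low genes, and higher or lower means a ratio of at least 2-fold on that scale. The libraries held 8234592 and 8436870 expected counts, FZD2 shRNA first. Mitochondrial ribosomal RNA took 3.88% of the counts in the FZD2 shRNA library (Wilson 95% interval 3.87% to 3.90%) and 8.31% in the control (8.29% to 8.32%). MALAT1, an abundant nuclear RNA, took 1.48% (1.47% to 1.49%) and 0.546% (0.541% to 0.551%). The part of these library differences in the results on LINC genes was not tested.

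The label names a liver cancer cell while the growth protocol in the labels names prostate cancer. Of 8 hepatocyte genes, 2 reached 1 FPKM: FGB and FGG, subunits of fibrinogen, with a summed level of the list of 230 FPKM with FZD2 shRNA and 194 FPKM with control shRNA. The hepatocyte marker ALB was at 0.05 and 0 FPKM. Of 5 prostate genes, 2 reached 1 FPKM, with sums of 8.73 and 7.39 FPKM, and KLK3, KLK2 and TMPRSS2 were at 0. A gene that a library did not list was also given the value 0. All 3 mesenchymal genes were detected, with sums of 2728 and 3497 FPKM. Of 3 endothelial genes, 1 reached 1 FPKM, with sums of 2.59 and 0.53 FPKM.

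Of the 169 LINC genes, 134 were higher by 2-fold or more with FZD2 shRNA, 1 was at least 2-fold lower and 34 lay between. Over all 9806 genes at the same level, 16.6% were higher and 8.13% were lower. The LINC genes had a median log2 ratio of 1.68, from -1.21 for LINC00920 to 4.73 for LINC00824, beside a median of -0.01 over all genes. Their median level was 10.8 FPKM with FZD2 shRNA and 3.12 FPKM with control shRNA. The choice by level enters these figures, and 97 of the 114 genes that only the FZD2 shRNA library brought in were higher, beside 67.3% of all genes brought in that way. Among the 53 LINC genes at 5 FPKM or more in both libraries, 37 were higher and none was lower, with a median of 1.45, beside 10.1% higher and 6.07% lower over all genes with both values at that level. At 4-fold, 46 of the 169 were higher, beside 3.66% of all genes.

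**Figure D1:**
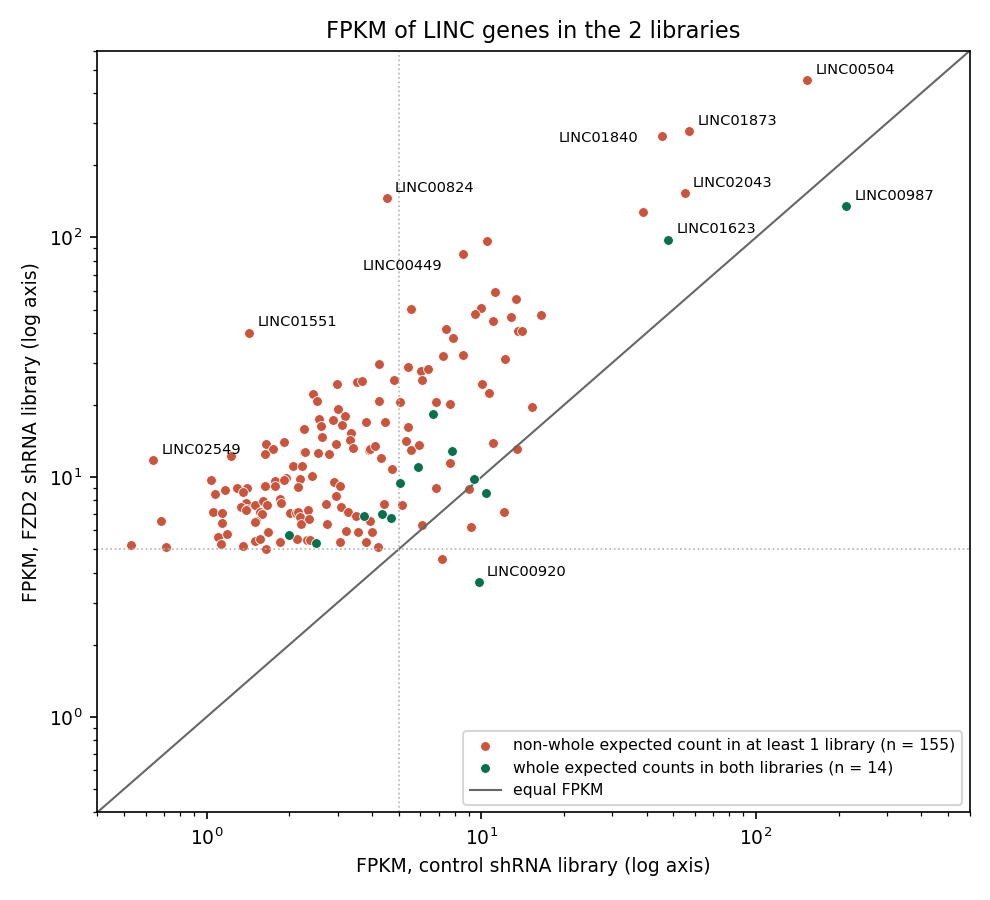
FPKM of the 169 LINC genes in the control library (horizontal, log scale) and in the FZD2 shRNA library (vertical, log scale), 1 point per gene. Genes of whole counts and of non-whole counts are marked apart, with a line at equal FPKM and dotted lines at 5 FPKM. Of the points, 161 lie above a log2 ratio of 0 and 8 lie below it.

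The deposited counts are expected counts, estimates that need not be whole numbers: when a read matches several genes, programs of this kind divide it among them. A gene's counts were taken as whole when both libraries' values lay within 0.001 of a whole number. This held for 14 of the 169 LINC genes, so 91.7% had non-whole counts, beside 42.2% of all genes at the same level. Of the 14 LINC genes with whole counts, 3 were higher and 1 was lower, with a median log2 ratio of 0.70. Over all genes with whole counts, 4.39% were higher and 11% were lower, with a median of -0.25. Of the 155 LINC genes with non-whole counts, 131 were higher and 0 were lower, with a median of 1.76, beside 33.4% higher, 4.13% lower and a median of 0.49 over all genes with non-whole counts.

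The counts were also taken as a share of each library. The 14 whole-count genes summed to 5882 expected counts in the FZD2 shRNA library, 0.0714% of the total (Wilson 95% interval 0.0696% to 0.0733%), and to 5822 in the control, 0.0690% (0.0673% to 0.0708%). The 155 non-whole genes summed to 74330 counts, 0.903% of the total (0.896% to 0.909%), against 21893 counts, 0.259% (0.256% to 0.263%). The near balance of the whole-count sum rested on 1 gene, LINC00987: the other 13 summed to 3590 counts, 0.0436% (0.0422% to 0.0450%), against 2108 counts, 0.0250% (0.0239% to 0.0261%). Without it the whole-count genes were thus higher in sum with FZD2 shRNA, as the non-whole genes were. Most of the counts left in that sum came from LINC01623, described below, which was itself higher. These intervals cover counting error only, and reads without molecular identifiers are not independent molecules. Among the genes at 5 FPKM or more in both libraries, 2 of 8 with whole counts were higher and 0 lower, beside 3.99% and 7.68% of all such genes. Of the 45 with non-whole counts, 35 were higher and 0 lower, beside 20.2% and 3.41%. A further 9 of the 155 had whole counts in 1 library only, and 6 of these were higher.

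The whole-count LINC genes are described first, because their deposited counts show no fractions of reads. LINC01623 had 97.7 FPKM with FZD2 shRNA and 48.0 FPKM with control shRNA, a log2 ratio of 1.01, from 2259 and 1140 counts. Its log2 count ratio, scaled to the library totals, was 1.02, with an exact binomial 95% interval from 0.92 to 1.13 that covers counting error only. LINC00467, whose RNA has been described as a source of a micropeptide in colorectal tumours, stood at 18.3 and 6.70 FPKM, a log2 ratio of 1.33, the highest of the 14. It rested on 117 and 44 counts, with a log2 count ratio of 1.45 (0.93 to 1.98). LINC02104 had 5.76 and 2 FPKM, a log2 ratio of 1.17, from only 28 and 10 counts, and its count ratio carried an interval from 0.44 to 2.73. These 3 were the whole-count genes past 2-fold upward, and LINC02104 has the widest interval of them.

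Another 7 whole-count genes were higher by less than 2-fold with 1 FPKM added. Of them, LINC01589 lay close to the limit, with a log2 ratio of 1.07 under a pseudocount of 0.1 FPKM. LINC01589 was at 5.34 and 2.50 FPKM (log2 ratio 0.86, 25 and 12 counts) and LINC02615 at 11 and 5.89 FPKM (0.80, 189 and 104 counts), in each case FZD2 shRNA first. LINC00702 was at 9.45 and 5.04 FPKM (0.79, 42 and 23 counts), LINC00205 at 6.92 and 3.73 FPKM (0.74, 416 and 230 counts) and LINC01508 at 12.8 and 7.81 FPKM (0.65, 107 and 67 counts). The count intervals of these 5 lay above equality. LINC01730, at 7.05 and 4.35 FPKM from 41 and 26 counts, and LINC01273, at 6.76 and 4.68 FPKM from 38 and 27 counts, had count intervals that included equality, so at this depth no difference was detectable for them.

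The remaining 4 whole-count genes were level or lower. LINC02274 had 9.80 and 9.44 FPKM, from 96 and 95 counts, and a log2 ratio of 0.05. LINC01278, which has been studied in liver cancer, had 8.56 and 10.4 FPKM, with a log2 count ratio of -0.29 (-0.56 to -0.01). LINC00987, which lies near the A2M genes, was the most abundant whole-count gene at 135 FPKM with FZD2 shRNA and 213 FPKM with control shRNA. Its log2 ratio was -0.65, from 2292 and 3714 counts, with a count interval from -0.74 to -0.59. LINC00920 was the only LINC gene of the 169 past 2-fold downward, at 3.66 and 9.78 FPKM, a log2 ratio of -1.21, from 27 and 74 counts (log2 count ratio -1.42, -2.11 to -0.77). In the whole-count genes, then, 8 count intervals lay above equality, 3 below and 3 across it.

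**Figure D2:**
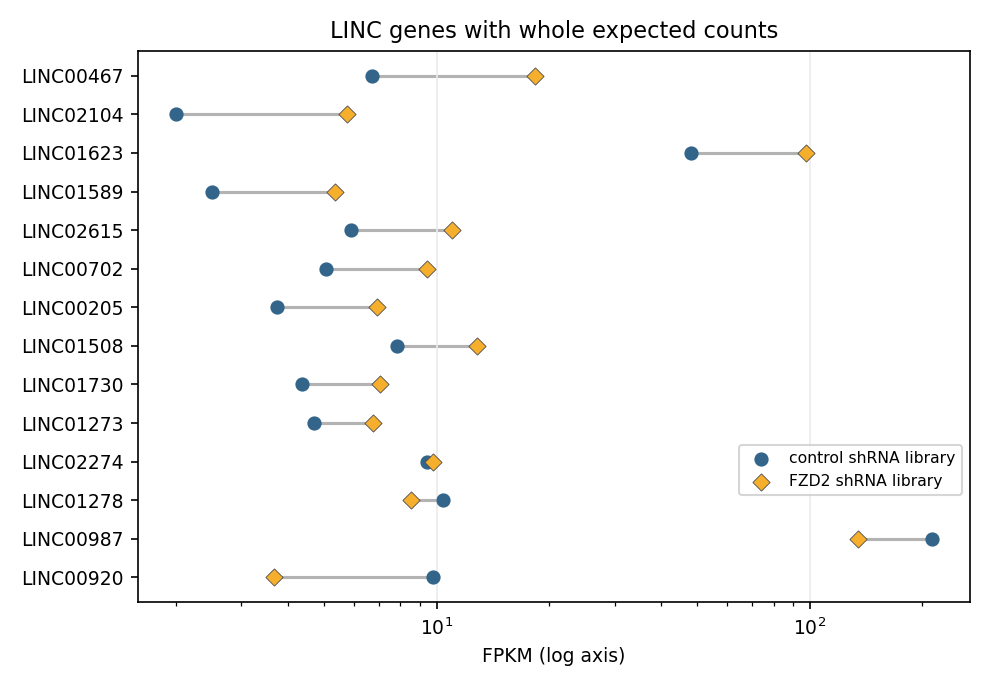
FPKM (log scale) of the 14 LINC genes with whole counts in the control shRNA and FZD2 shRNA libraries, 1 library per group. The points of each gene are joined by a line. Genes are ordered by log2 ratio, from -1.21 for LINC00920 to 1.33 for LINC00467.

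Among the non-whole genes, LINC00504 was the most abundant. It reached 452 FPKM with FZD2 shRNA and 153 FPKM with control shRNA, a log2 ratio of 1.55, from 17607 and 6136 expected counts. It alone held 22% of the counts of the 169 genes with FZD2 shRNA and 22.1% with control shRNA. LINC01873 was at 277 and 57.3 FPKM (log2 ratio 2.25), LINC01840 at 264 and 45.7 FPKM (2.51) and LINC02043 at 153 and 55.1 FPKM (1.45). LINC00506 followed at 127 and 38.7 FPKM, with a log2 ratio of 1.69. All 5 were higher in the FZD2 shRNA library by more than 2-fold, and their count intervals all lay above 2-fold. The 5 genes most abundant in the FZD2 shRNA library made up 31.2% of the summed FPKM of the 169 genes there.

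The highest log2 ratio was that of LINC00824, with 145 FPKM under FZD2 shRNA and 4.52 FPKM under control shRNA, or 4.73. Its expected counts were 1626 and 51.9, a log2 count ratio of 5.00 (4.6 to 5.43). LINC01551 came next at 40.0 and 1.43 FPKM, a log2 ratio of 4.08, with 1049 and 38.6 counts. These are the 2 genes past a log2 ratio of 4, and the next, LINC00449, stood at 85.4 and 8.56 FPKM, with 3.18. LINC02087 was at 97.0 and 10.5 FPKM (3.10) and LINC01209 at 50 and 5.53 FPKM (2.97). LINC02549 had the same rounded ratio, 2.97, at 11.8 and 0.64 FPKM, but rested on 63.6 and 3.52 counts, and its log2 count ratio of 4.04 carried an interval from 2.61 to 5.95.

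The other 6 of the 12 highest lay between log2 ratios of 2.52 and 2.75. They were LINC00485 at 22.2 and 2.45 FPKM, LINC02071 at 24.5 and 2.99 FPKM, and LINC01993 at 20.8 and 2.52 FPKM. They also included LINC01482 at 12.2 and 1.23 FPKM, LINC01441 at 29.8 and 4.23 FPKM, and LINC02099 at 24.9 and 3.53 FPKM. All 12 had non-whole counts. In all, 112 non-whole LINC genes had a higher log2 ratio than LINC00467, the highest of the whole-count genes.

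Of 45 LINC genes listed for a known background, 9 were among the 169, with 5 higher, 0 lower and a median log2 ratio of 1.33. Over all genes at 5 FPKM, 16.6% were higher and 8.13% lower. LINC00941, studied in epithelial tumours, was at 25.3 and 6.09 FPKM (log2 ratio 1.89), and LINC00665, whose RNA is described as the source of a small peptide that binds CIP2A, at 46.6 and 12.8 FPKM (1.78). LINC00342 was at 40.8 and 13.6 FPKM (1.52), and LINC00963, first studied in prostate cancer progression, at 20.6 and 6.84 FPKM (1.46). With LINC00467 these are the 5, and only LINC00467 of them had whole counts. LINC01503, studied in squamous carcinoma, was at 7.72 and 4.42 FPKM (0.69), and LINC01106 at 13.1 and 13.5 FPKM (-0.04). LINC00839 was at 6.20 and 9.21 FPKM (-0.50), below equality with a count interval from -0.92 to -0.24. The list thus held genes on each side of equality.

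The low end of the 169 was short. Besides LINC00920 and LINC00987, it held LINC00673, studied in pancreatic cancer, at 7.19 and 12.1 FPKM, a log2 ratio of -0.68. LINC00857, studied in lung adenocarcinoma, was at 4.55 and 7.21 FPKM, a log2 ratio of -0.56. LINC00839 and LINC01278 were also below equality, and LINC01106 and LINC02067 (8.93 and 8.99 FPKM, -0.01) stood at it. These are the 8 genes below 0. Just above it came LINC02987 at 6.30 and 6.08 FPKM (0.04), LINC02274, LINC00923 at 5.10 and 4.21 FPKM (0.23) and LINC02210 at 13.9 and 11 FPKM (0.31).

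At the limit itself, 13 of the 169 had a higher value from 5 to 5.5 FPKM, with log2 ratios from 0.23 (LINC00923) to 2.02 (LINC01269, 5.21 and 0.53 FPKM) and a median of 1.16. Just outside, 15 LINC genes reached 4.5 FPKM but not 5, with log2 ratios from -0.47 (LINC00960, 3.27 and 4.92 FPKM) to 1.83 (LINC00508, 4.90 and 0.66 FPKM) and a median of 0.99. In each set 7 genes were higher, beside 16.6% of all genes at 5 FPKM or more. That share covers every level from 5 FPKM upward, and none was taken over all genes from 4.5 to 5.5 FPKM. With the limit at 1 FPKM, 368 LINC genes entered, of which 199 were higher and 5 lower (median 1.10), beside 15.2% higher and 7.41% lower over all genes at that limit.

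The FPKM and the expected counts of a gene rest on the same reads, so agreement between them is not independent evidence. They gave the same picture with few exceptions. All 134 genes called higher by FPKM were also 2-fold or more higher by count ratio, and 5 more passed by count ratio alone. The count interval lay above equality for 151 of the 169, below it for 6 and across it for 12, beside 39% above and 41.2% below over all genes at this level. For 117 of the 134 even the lower bound was at least 2-fold. No share over all genes was taken for that bound or for the count ratio without an added value. The choice by level enters here too, as the FZD2 shRNA library alone brought in 97 of the 134. The median log2 count ratio, with no value added, was 2.05, and it was 0.80 for the whole-count and 2.12 for the non-whole genes. The higher library held under 50 counts for 22 genes.

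The deposited transcript length was the same in both libraries for 145 of the 169 genes, and for 6 it differed by over 5%. LINC00641 was the only gene whose ratios had opposite signs. It had 5.39 and 3.8 FPKM, a log2 ratio of 0.41, but 103 and 107 counts, a log2 count ratio of -0.02 (-0.42 to 0.38), on deposited lengths of 2314 and 3301 bases. For LINC02210 the lengths were 3486 and 2999 bases, and the log2 ratio was 0.31 by FPKM and 0.55 by counts. LINC00665, with lengths of 1702 and 1597 bases, had 1.78 by FPKM and 1.95 by counts. Where the length moved, an FPKM ratio therefore held a change of length as well as one of counts.

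**Figure D3:**
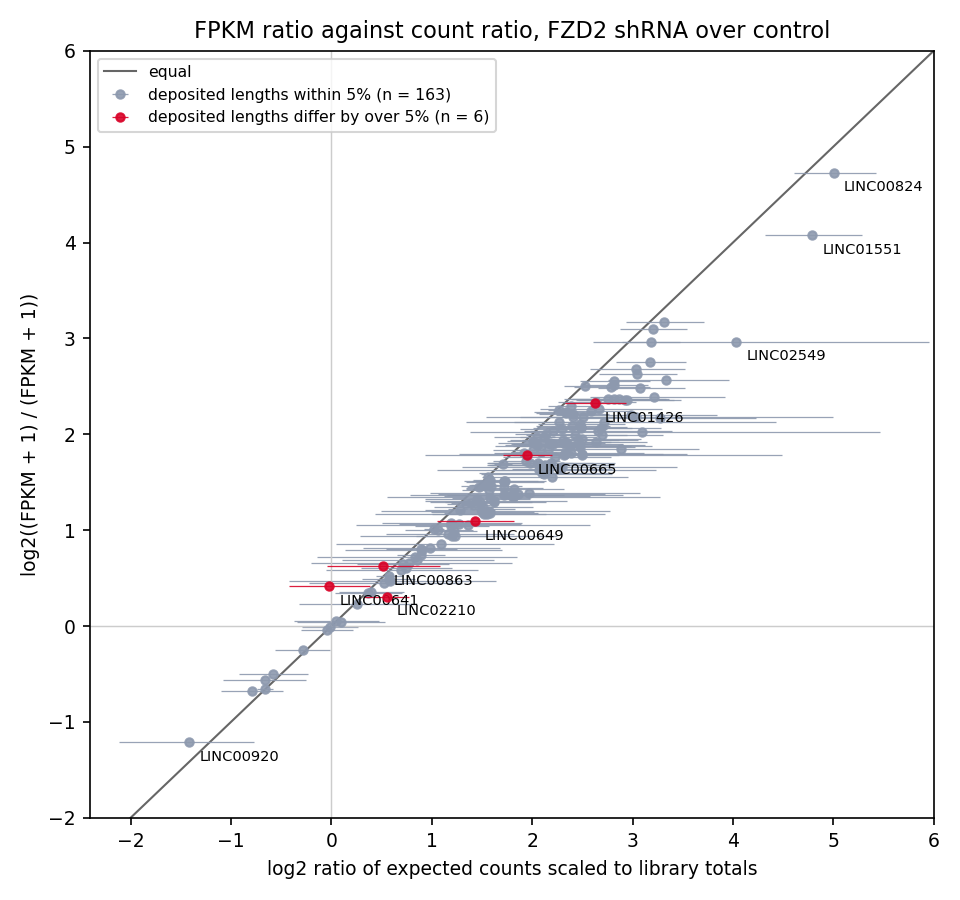
Log2 count ratio and log2 ratio of FPKM with 1 added, FZD2 shRNA over control, set against each other for the 169 LINC genes. Each gene is 1 point, and the line of equality is drawn. The median is 2.05 by counts and 1.68 by FPKM. LINC00641 is the 1 gene with opposite signs, at 0.41 by FPKM and -0.02 by counts.

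Of the 169 genes, 147 were matched by accession to a GENCODE 29 transcript on GRCh38, 113 of them within 10% of the deposited length. An Alu-like stretch, found by aligning the 7SL RNA gene RN7SL1, was present in 104 of the 147. Of these 104 genes, 96 were higher and 0 were lower, with a median log2 ratio of 1.87. Of the 43 without such a stretch, 23 were higher and 1 was lower, with a median of 1.06. Over all genes at this level the figures were 40.4% higher with a median of 0.73 where an Alu-like stretch was present, and 7.38% higher with a median of -0.19 where none was found. The stretch was present in 79 of 102 matched LINC genes that the FZD2 shRNA library alone brought in, which could only have ratios above 0. It was present in 25 of 43 at 5 FPKM or more in both libraries. Over all genes these were 735 of 1191 and 1570 of 7332. The choice by level therefore enters the Alu-like comparison too.

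The Alu-like stretch and the non-whole counts went together, so the 2 were also split. Among non-whole LINC genes, 95 of 102 with an Alu-like stretch were higher (median 1.89) and 21 of 31 without one were higher (median 1.37). Over all non-whole genes the shares were 43.3% (median 0.81) and 16.9% (median 0.02). Only 2 of the 14 whole-count LINC genes held such a stretch, LINC00467 over 10.8% of its transcript and LINC01730 over 8.90%. Over all whole-count genes with an Alu-like stretch, 4.44% were higher, with a median of -0.39. Within 10% of the deposited length, 83 of 85 LINC genes with the stretch were higher, and 15 of 28 without it, beside 42.7% and 5.67% over all genes with that match. Over the 147 genes, Spearman's rho of the log2 ratio with the Alu-like share of the transcript was 0.47, and with GC content it was -0.04, given as descriptions over genes that share both libraries. Among the 12 genes with the highest log2 ratios, all of them matched, the share ran from 1.80% in LINC00485 to 21.3% in LINC00824, with a median of 6.82%. The matched transcripts of LINC00824 and LINC01551 had 920 and 1581 bases, beside deposited lengths of 1366 and 3154. These genes thus fell outside the 10% match, and their shares describe shorter transcripts. LINC01873, with a log2 ratio of 2.25, held no such stretch.

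**Figure D4:**
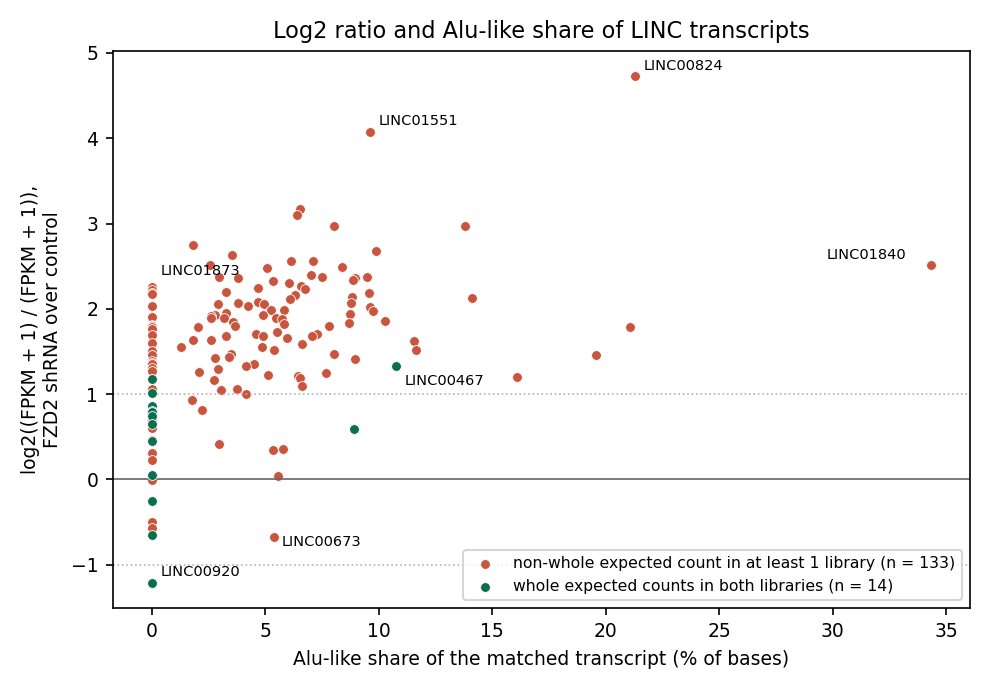
Log2 ratio, FZD2 shRNA over control, against the Alu-like share of the matched transcript (percent) for 147 LINC genes, 1 point per gene, whole and non-whole counts marked apart. Genes at 0% have a median of 1.06 and genes above 0% a median of 1.87.

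Shared sequence was counted against every GENCODE gene of another name, as exact runs of 31 bases on either strand. The 27 LINC genes that shared such a run with under 100 other gene names had 10 higher and 1 lower, a median of 0.72, and held 12 of the 14 whole-count genes, beside 6.52% higher and a median of -0.21 over all genes in that range. The 29 that shared with 100 or more but under 1000 had 23 higher and a median of 1.39, beside 21.4% and 0.15. The 91 that shared with at least 1000 had 86 higher and a median of 1.92, beside 46.1% and 0.90. The rise over the 3 ranges was thus also present over all genes. LINC00824 shared a run with 4909 gene names, LINC01551 with 5071, LINC01840 with 3643 and LINC00504 with 3317, while LINC00920 shared with 0. For LINC00824 and LINC01551 the matched transcript was shorter than the deposited length. LINC01623 shared 46.6% of its runs with the pseudogene RPL13P but had whole counts, so shared sequence in GENCODE and a non-whole count are not the same property. Values of genes that share runs are uncertain to the extent that the authors' counting divided reads among them.

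The nearest protein-coding gene in the RefSeq table was measured, at 1 FPKM or more in either library, for 113 of the 169 LINC genes. These were 108 distinct neighbours, of which 15 were higher and 9 were lower, with a median log2 ratio of -0.21, beside 10.6% higher and 7.3% lower over all protein-coding genes at 1 FPKM. Of the 86 higher LINC genes with a measured neighbour, the neighbour was higher for 11 and lower for 8. Of the 69 neighbours with whole counts, 3 rose at least 2-fold and 9 fell by as much (median -0.34). Among whole-count protein-coding genes at the limit of 5 FPKM, the corresponding shares were 3.93% and 10.7% (median -0.26). MYC, the transcription factor gene nearest to LINC00824, was at 25.3 and 65.4 FPKM, a log2 ratio of -1.34 where the LINC gene had 4.73. SOX4, a transcription factor gene nearest to LINC00581 (5.17 and 1.36 FPKM, 1.39), was at 105 and 31.2 FPKM, with 1.72. KLF6, a zinc-finger factor gene nearest to LINC00702, was at 102 and 28.5 FPKM, with 1.80, and TRIM27, nearest to LINC01623, was at 7.42 and 16.5 FPKM, with -1.05. The neighbour thus moved the same way as the LINC gene in some pairs and the other way in others, and 11 of the 169 overlap a protein-coding gene, where reads without strand cannot be told apart.

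Other non-coding classes were set beside the LINC genes at the same limit of 5 FPKM. Of 227 genes with an antisense symbol, 126 were higher and 10 were lower, with a median of 1.23, and of 250 other long non-coding RNA genes, 150 were higher and 8 were lower, with a median of 1.30. Of the 8784 protein-coding genes, 1048 were higher and 739 were lower, with a median of -0.08. Split by whole and non-whole counts, the medians were 0.15 and 1.5 for antisense genes, 0.12 and 1.47 for other long non-coding RNAs and -0.26 and 0.30 for protein-coding genes, beside 0.70 and 1.76 for the LINC genes. The order of whole below non-whole was therefore shared by all of these classes. Counted as TPM, which rescales each library to the same sum, the median log2 ratio over all genes moved up by 0.15. That shift is larger than the size of the protein-coding median. No test of the classes was made, since all come from the same 2 libraries.

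In all, 68 genes had another symbol but a LINC number among their synonyms, and are called renamed LINC genes. A synonym need not be a former symbol, and 20 of the 68 are protein-coding. Of the 68, 26 were higher and 3 were lower, with a median of 0.82. The 17 with whole counts had a median of -0.20 and the 51 with non-whole counts a median of 0.94. MALAT1, with whole counts, was at 1665 and 612 FPKM, a log2 ratio of 1.44, and SNHG8, a small nucleolar RNA host gene with whole counts, at 125 and 118 FPKM, with 0.09. SLC44A3-AS1, with non-whole counts, was at 287 and 99.2 FPKM, a log2 ratio of 1.52. BCYRN1, the brain cytoplasmic RNA that itself descends from an Alu element, was at 1048 and 663 FPKM (0.66), and MIR4435-2HG, a microRNA host gene, at 78.0 and 48.0 FPKM (0.69). CYTOR was at 99.2 and 68.0 FPKM (0.54), KANTR at 145 and 189 FPKM (-0.38), and FTX, a gene of the X-inactivation centre, at 50.6 and 77.4 FPKM (-0.60).

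**Figure D5:**
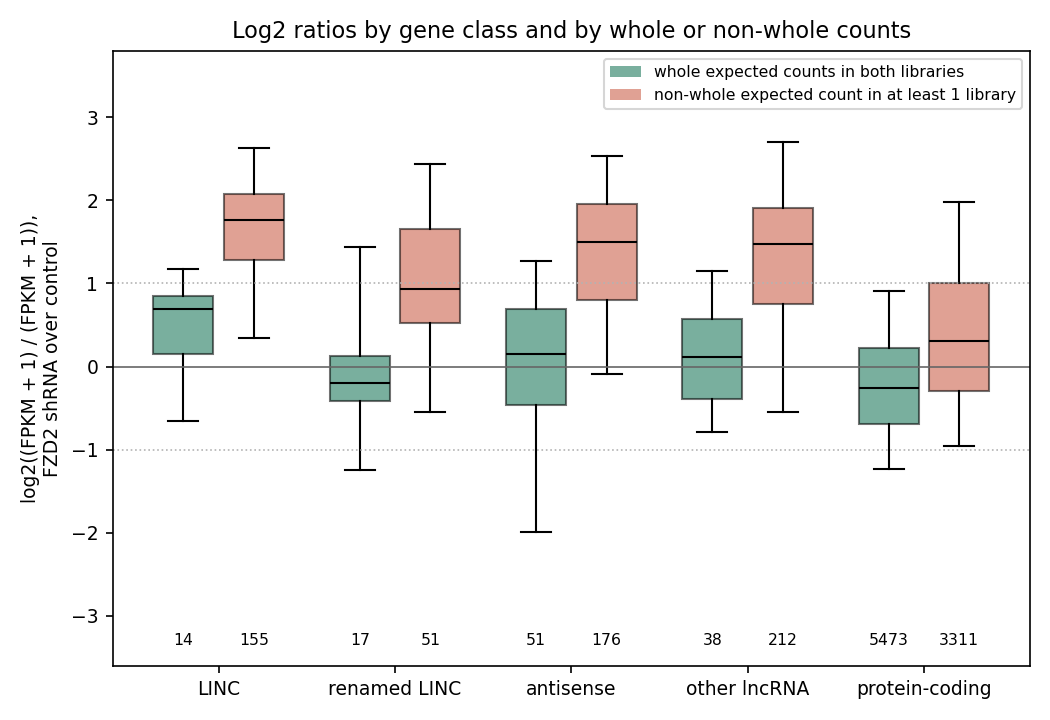
Log2 ratio, FZD2 shRNA over control, of genes at 5 FPKM or more in either library, by class (LINC, renamed LINC, antisense, other long non-coding RNA, protein-coding) and by whole and non-whole counts, with the median of each. In every class the median of the non-whole genes is above that of the whole-count genes, as for LINC genes at 1.76 and 0.70.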

How the data were processed

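Per the labels' protocols, poly(A)-selected RNA of 1 FZD2 shRNA culture and 1 control shRNA culture of SNU449 cells was sequenced. Per the submitters' processing notes, HISAT, Bowtie2 and the hg19 build were used. The sources used here do not give the counting program and annotation. The authors deposited, per gene identifier, an expected count, not normalized, an FPKM value and a transcript length in bases. Symbols came from a RefSeq gene table and 87 listed genes found none.

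The LINC genes and the lists of known, neighbouring and marker genes were chosen with earlier results of these data known. Higher and lower mean a log2((FPKM + 1)/(FPKM + 1)) of at least 1 in size. Expected counts were rounded for an exact conditional binomial 95% interval of the count ratio scaled to library totals. A total of 8234592 (FZD2 shRNA) or 8436870 (control) counts lets a count of 0 allow up to 3 counts, 3.64e-05% or 3.56e-05%. No test of the conditions could be made from 1 culture each. Genes named in the text are FZD2, the 12 highest and 12 lowest log2 ratios, the 10 highest mean FPKM, 12 whole-count genes with the largest ratios in size, genes within 0.5 FPKM of the limit, those with a known background, 8 renamed genes, and neighbours. LINC00960 and LINC00508 are named as the extremes just outside the limit.

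Transcripts were matched by accession to GENCODE 29 (GRCh38), taking the transcript closest to the deposited length. Alu-like stretches were found with blastn 2.17.0 (RN7SL1, word 11, E at most 1e-05), and shared runs as exact 31-base matches with genes of another name. Transcript sequences and 1 marker list are not reported here. Tools were Python 3.11.15 with pandas 2.3.3 and SciPy 1.17.1, and R 4.3.3 with edgeR 4.0.16 for TMM factors. Scripts were tested on simulated data. Alternatives changed the pseudocount, the scaling, the limits and the treatment of non-whole counts, and those on Alu-like stretches, matched length and the sum without LINC00987 were added after seeing the data.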

Additional observations from a re-analysis of the deposited data

How the results depend on the processing

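The count of LINC genes at least 2-fold higher, 134 of 169, became 84 with a pseudocount of 5 FPKM, 79 of 88 at a limit of 10 FPKM, 37 of 53 at 5 FPKM in both libraries, 3 of 14 with whole counts only, 23 of 43 without an Alu-like stretch, and 46 at 4-fold. Over all genes, 16.6% were higher as reported, 9.60% with that pseudocount, 10.1% at 5 FPKM in both libraries and 3.66% at 4-fold. The shares were 4.39% with whole counts only and 7.38% without an Alu-like stretch. No share over all genes was taken at 10 FPKM. The count at least 2-fold lower, 1, became 0 with the pseudocount of 5, at 10 FPKM, in both libraries and at 4-fold, 3 at 1.5-fold, 5 at 1 FPKM or with no limit, and 6 by the count interval. Over all genes, 8.13% were lower as reported, 3.07% with the pseudocount of 5 and 6.07% at 5 FPKM in both libraries. The shares lower were 7.41% at 1 FPKM, 5.52% with no limit and 41.2% by the count interval. The median log2 ratio of 1.68 became 2.02 with a pseudocount of 0.1, 0.99 with 5, 1.95 as TPM, 1.10 at 1 FPKM, 0.33 with no limit, 0.70 with whole counts only and 1.06 without an Alu-like stretch. For whole-count genes a pseudocount of 0.1, or TPM, gave 4 higher and 1 lower. The pseudocount of 5 gave 0 higher and 0 lower for them, and counting genes whole in at least 1 library gave 9 higher of 23. For non-whole genes that pseudocount gave 84 higher and a median of 1.02. TPM moved the median of all genes by 0.15, and the direction of the LINC medians was upward under every alternative run. Fewer genes enter at 10 FPKM or at 5 FPKM in both libraries, more enter at 1 FPKM or with no limit, and the cause of the other changes was not tested. No paired analysis was possible because each group holds 1 library, which also leaves no replicate error to set beside any difference. The depth limits single genes: 22 of the 169 had under 50 counts in the higher library.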

Other observations

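Below the limit of 5 FPKM, the files list 550 further LINC genes. At 1 FPKM or more in either library, 59 LINC genes had whole counts, with 6 higher, 3 lower and a median log2 ratio of 0.15, and 309 had non-whole counts, with 193 higher, 2 lower and a median of 1.21. Over all genes at 1 FPKM, 15.2% were higher and 7.41% lower. At 5 FPKM, 4.39% of all whole-count genes and 33.4% of all non-whole genes were higher. The whole-count genes below the limit past 2-fold were chosen for naming after their values were seen. LINC01023 was at 3.39 FPKM with FZD2 shRNA and 0.28 FPKM with control shRNA, from 12 and 1 counts, LINC02585 at 2.65 and 0.65 FPKM, from 4 and 1 counts, and LINC00618 at 1.83 and 0.36 FPKM, from 5 and 1 counts. LINC00339 was at 1.71 and 4.43 FPKM, from 15 and 40 counts. LINC00911 was at 0 and 1.40 FPKM, from 0 and 5 counts. Of these only LINC00339 rests on at least 15 counts in each library.

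NEAT1, the scaffold RNA of nuclear paraspeckles, with a LINC number among its synonyms, is a case where the measures part. It stood at 31.6 FPKM with FZD2 shRNA and 42.0 FPKM with control shRNA, a log2 ratio of -0.40, while its expected counts were 6041 and 1809, a log2 count ratio of 1.77 (exact binomial 95% interval 1.70 to 1.85). The deposited transcript lengths were 22743 and 5022 bases, so the FPKM of the 2 libraries refer to different lengths of this gene. It was named after its values were seen.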
